A study of Mus musculus with 30 samples.

Results

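Expression was measured on 6 arrays of neurospheres that lack Olig1 and Olig2, 3 of which had received a retrovirus for Olig2 and 3 a retrovirus for green fluorescent protein (GFP), out of 30 arrays in the series. Members were taken by their titles, and each of the culture lines 12, 13 and 14 gave 1 Olig2 array and 1 GFP array. Neurospheres are floating aggregates of neural progenitors. These came from ganglionic eminences, the ventral forebrain germinal zone, of E14.5 mouse embryos, on a mixed Swiss and C57BL/6J background. All 6 cultures were Olig1/2-/- and Ink4a/Arf-/-, which removes a tumour suppressor locus, and all carried a first retrovirus for hEGFRvIII, a glioma form of the epidermal growth factor receptor that signals without ligand, given at passage 1 with puromycin at 2 µg/mL. The Olig2 or GFP virus followed at passage 3 with blasticidin at 2 µg/mL. Cells grew without serum in EGF and bFGF at 20 ng/mL each and were harvested between passages 4 and 15, with the passage of each array not stated. The number in a title was read as the culture line, and nothing in the labels says whether arrays of 1 line shared a harvest, so p-values measure the spread between arrays. The control of the same lines without a second virus (3 arrays), heterozygous Olig1/2+/- lines 11 and 15 with either virus (4 arrays), wild-type Olig1/2+/+ cultures (3 arrays) and null lines 16, 21 and 24 without a second virus (3 arrays) were used for comparison. The 4 heterozygous arrays also entered the fit, so each SE and p-value pools their spread with that of the 6 null arrays.

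Olig1 and Olig2 are basic helix-loop-helix transcription factors that pair with broadly expressed E proteins and bind E-boxes, short DNA sites with the letters CANNTG. In the ventral forebrain Olig2 keeps progenitors dividing and starts the oligodendrocyte lineage, and in neural progenitors and glioma it is known for restraining the p53 pathway. Id proteins such as Id4 bind E proteins and keep them from DNA. The comparison of Olig2 with GFP in cells without either Olig gene asks what Olig2 does in the absence of Olig1.

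Values are MAS5 signals, a linear measure of probe set brightness, and differences are on the log2(signal + 16) scale, on which 1 is a doubling for all but the dimmest genes. Of 12458 genes tested with limma, 982 differed at an adjusted p under 0.05 and are termed called, which is 7.88% of genes. Of these, 404 genes (3.24%) were higher and 578 (4.64%) were lower with Olig2. At an unadjusted p under 0.05, 3112 of the 12458 genes differed in either direction, which is the background for the unadjusted counts of lists below. A doubling or more was reached by 207 of the genes called higher, and a fall to 1 part in 2 or less by 190 of those called lower. The 3 Olig2 arrays lay entirely above or below the 3 GFP arrays for 28.6% of all genes and for 975 of the 982 called ones. Leaving out the Olig2 array of line 12 left 304 calls and that of line 13 left 358, while leaving out the GFP array of line 13 left 527 and that of line 14 left 554. Scaling each array to its 75th percentile moved the median of all genes from 0.03 to -0.09 and the calls to 303 higher and 1025 lower, so small falls in particular are relative to the scaling.

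The 12 largest rises that shared a sign in all lines ran from 3.96 for Kcnd2 to 2.64 for Cdc42ep3, and the 12 largest falls from -4.12 for Prex2 to -3.09 for Lmcd1. Hmga2 encodes a chromatin protein of fetal and stem cells that bends DNA. Its signal was 261, 132 and 195 on the GFP arrays of lines 12, 13 and 14 and 2532, 3744 and 3044 on the Olig2 arrays. The groups were far apart in every line, and the difference was 3.91 ± 0.23 (SE, adjusted p = 1.8e-05), the smallest p of all genes. The other 3 probe sets of Hmga2 differed by 4.39, 3.34 and 1.76. Ryr3, an intracellular calcium release channel, was at 57.9, 7.1 and 45.5 with GFP and at 694, 758 and 433 with Olig2. On this probe set no array of either group came near the other group, and Ryr3 rose by 3.73 ± 0.40 (SE, adjusted p = 8.6e-04). Another Ryr3 probe set differed by 1.93. A further one differed by 0.70, with overlapping groups, and was not called. Olfml3, a secreted olfactomedin-domain protein, was at 183, 240 and 187 with GFP and at 1260, 2284 and 2404 with Olig2. It rose in all 3 lines, least in line 12 (2.68, against 3.17 and 3.57). Cdc42ep3, an effector of the Cdc42 GTPase that shapes the actin skeleton, was at 126, 150 and 239 with GFP and at 1140, 1436 and 852 with Olig2, and rose by 2.64 ± 0.25 (SE, adjusted p = 3.6e-04).

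Other large rises were less even between the lines. Kcnd2, a voltage-gated potassium channel subunit, was at 4.1, 11.6 and 48.7 with GFP and at 761, 1258 and 121 with Olig2. Its difference of 3.96 ± 0.69 (SE, adjusted p = 0.0078) was made of 5.27 in line 12, 5.53 in line 13 and 1.09 in line 14, but the GFP signals of lines 12 and 13 are below the added 16, so the sizes in those lines depend on it. Arc, an immediate early gene of neuronal activity, likewise differed by 4.53, 3.74 and 0.41 in the same order, and was not called without Olig2 line 12 (2.47) or Olig2 line 13 (2.66). Mmd2, a multi-pass membrane protein, differed by 5.38, 3.62 and 0.83, and was not called without Olig2 line 12 (2.95) or Olig2 line 13 (2.97). The same lines without a second virus had Mmd2 at 613, 573 and 395, above the 40, 167 and 328 with GFP, and against them it was not called (1.47, adjusted p = 0.25). Car8, a carbonic anhydrase-related protein that acts on calcium release, rose by 3.52, 4.39 and 1.93. Gjc3, a connexin of glia, was at 51.6, 12.8 and 32.0 with GFP and at 337, 553 and 116 with Olig2, and rose by 2.71. Prelp, a matrix proteoglycan, rose by 2.74, with no call without Olig2 line 12 (2.76), Olig2 line 13 (2.47) or GFP line 13 (2.66), nor against the same lines without a second virus (1.13). Kcnd2 was not called with the Gapdh 3'/5' ratio of each array, a measure of RNA integrity, as a covariate (4.09, adjusted p = 0.074). The other Kcnd2 probe sets bright enough to test differed by 2.60 and 2.48 and were not called. In line 14 they did not rise, with 14.7 and 46.4 with GFP and 15.2 and 12.5 with Olig2. Pcdh7, an adhesion protocadherin, went from 3.6, 2.4 and 5.8 with GFP to 127, 142 and 102 with Olig2, and the cytokine gene Tslp from 4.1, 10.2 and 5.1 to 267, 162 and 135. These GFP signals too are below the added 16, so their differences of 2.80 and 3.14 depend on it. Pcdh7 was below the array median on every null array (173.6 to 191.2 with Olig2), so it was tested only because of heterozygous arrays. Tslp reached the median of a null array only with Olig2 in line 12. The GFP signals of Kcnd2, Arc, Ryr3, Car8 and Gjc3 were likewise all below the array medians (128.9 to 151.6). The same lines without a second virus had Pcdh7 at 46.5, 33.1 and 28.8 and Tslp at 171, 78.6 and 6.3, above the GFP arrays in lines 12 and 13.

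**Figure D1:**
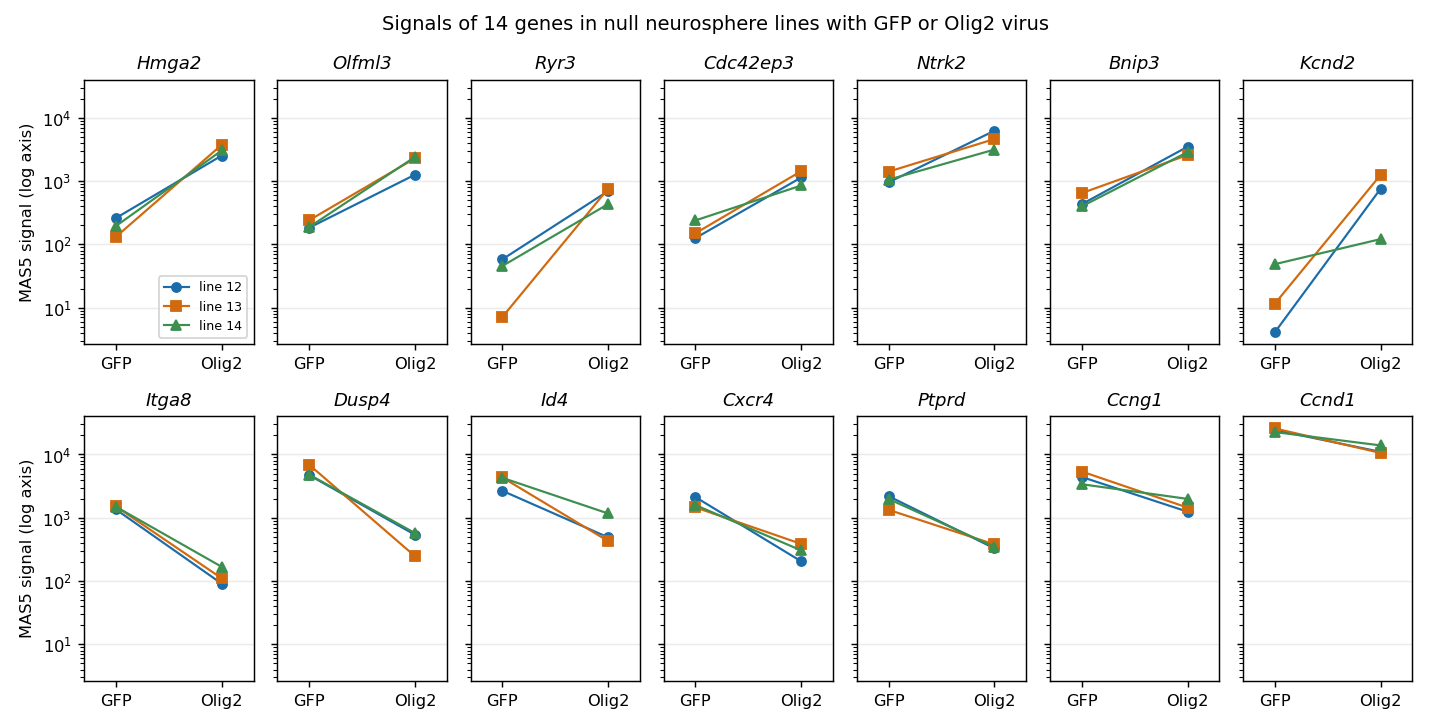
MAS5 signal (log axis) of 14 genes on the GFP and Olig2 arrays of null lines 12, 13 and 14, with 1 point per array and a line joining the arrays of 1 culture line. The top row holds genes called higher and the bottom row genes called lower with Olig2, each by the probe set used. Kcnd2 shows the weak response of line 14 on that probe set, at 48.7 and 121, beside 4.1 and 761 in line 12.

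Among the genes that fell, several encode adhesion and guidance receptors and brakes on kinase and G-protein signalling. Itga8, an integrin subunit for matrix adhesion, was at 1354, 1510 and 1494 with GFP and at 90.9, 110 and 168 with Olig2. Its fall was close in the 3 lines (-3.68, -3.59 and -3.04) and gave -3.44 ± 0.24 (SE, adjusted p = 5.1e-05). The same lines without a second virus were lower than with GFP, at 754, 404 and 279, and against them Itga8 differed by -1.75 (adjusted p = 0.0089). The other Itga8 probe set, which is dimmer, differed from GFP by -1.26 and was not called. Dusp4, a phosphatase that switches off MAP kinases, was at 4727, 6899 and 4813 with GFP and at 540, 247 and 573 with Olig2. Line 13 fell most (-4.71), and lines 12 and 14 were near each other (-3.09 and -3.03). Ptprd, a receptor tyrosine phosphatase of synapses, was at 2193, 1336 and 1983 with GFP and at 329, 380 and 346 with Olig2, and fell by 2.31 ± 0.21 (SE, adjusted p = 3.3e-04). Cxcr4, the receptor for the chemokine Cxcl12, was at 2121, 1459 and 1588 with GFP and at 205, 387 and 305 with Olig2. It fell by 2.49 ± 0.29 (SE, adjusted p = 0.0011) and did not overlap between groups. Kif5c, a neuronal kinesin motor, fell by 3.16, Lmcd1, a LIM-domain cofactor, by 3.09, and the secreted C1q family gene C1qtnf1 by 4.06.

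The remaining large falls were in part less firm. Prex2, an exchange factor for Rac GTPases, was at 314, 498 and 1006 with GFP and at 19.9, 31.6 and 3.5 with Olig2, and fell by 4.12 ± 0.68 (SE, adjusted p = 0.0064). It was not called without GFP line 14 (-3.68). Thsd4, a matrix protein with thrombospondin domains, was at 319, 408 and 285 with GFP and at 7.5, 18.1 and 8.6 with Olig2. It fell by 3.69, evenly in the lines, but lost its call without any one GFP array (-3.80 to -3.56). Fam167a fell by 3.86, with -5.65, -4.05 and -1.87 in lines 12, 13 and 14, and was not called without GFP line 12 (-2.86), Olig2 line 12 (-3.96) or Olig2 line 13 (-3.40). Col5a2, a fibrillar collagen chain, fell by 3.20, mostly in line 14 (-6.23, against -1.47 and -1.90), and was not called without Olig2 line 13 (-3.61) or any one GFP array (-3.45 to -2.94), among others. Ly6e, a membrane-anchored surface protein, fell by 3.32, but a dimmer probe set not shared between transcripts gave 0.05.

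Id4 fell in each line without reaching the wild-type level. Its signal was 2672, 4345 and 4283 with GFP and 491, 429 and 1170 with Olig2, while wild-type cultures averaged 158 ± 42.7 (SD, n = 3). The difference was -2.52 ± 0.32 (SE, adjusted p = 0.0020), and line 14 kept the highest Id4 of the Olig2 arrays. The other 2 Id4 probe sets differed by -2.43 and -1.49. The other Id genes were not called, with differences of 0.31 for Id3, -0.10 for Id2 and 0.08 for Id1. Of the 11 proneural and E-protein genes tested, Tcf4, an E protein and dimer partner of Olig2, fell by 0.58, with 10150, 11968 and 11425 against 7404, 7908 and 7084. That call did not hold without Olig2 line 12 (-0.57). Bhlhe40, a circadian and hypoxia-linked repressor, rose by 1.26 over GFP, but differed by -0.58 from the same lines without a second virus.

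The Olig2 probe set itself did not rise. It was at 10275, 8279 and 8950 with GFP and at 4450, 5697 and 10011 with Olig2 (-0.53, adjusted p = 0.18). The Olig1 probe set was bright too, at 5124, 11291 and 6729 with GFP and at 11630, 10277 and 5640 with Olig2. Its difference of 0.26 was not called, and wild-type cultures averaged 26610 ± 4135 (SD, n = 3). No source used here places either probe set against the deleted stretch or against the virus. Neither probe set therefore checks the deletion or the virus.

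To look for the E-box letters, the 250 bases before the RefSeq start site (GRCm38.p6) are given 5′ to 3′ on the gene's strand. This is done for the gene of smallest p in each direction and for Id4, with every CANNTG in capitals. Binding was not measured. Hmga2 is at chr10:120476470-120476719 on the minus strand, Itga8 at chr2:12301945-12302194 on the minus strand and Id4 at chr13:48260866-48261115 on the plus strand.
Hmga2: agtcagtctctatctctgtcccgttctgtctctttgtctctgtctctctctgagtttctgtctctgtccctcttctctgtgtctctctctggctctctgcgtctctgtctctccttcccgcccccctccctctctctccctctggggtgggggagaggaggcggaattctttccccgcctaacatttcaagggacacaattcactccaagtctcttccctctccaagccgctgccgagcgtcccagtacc
Itga8: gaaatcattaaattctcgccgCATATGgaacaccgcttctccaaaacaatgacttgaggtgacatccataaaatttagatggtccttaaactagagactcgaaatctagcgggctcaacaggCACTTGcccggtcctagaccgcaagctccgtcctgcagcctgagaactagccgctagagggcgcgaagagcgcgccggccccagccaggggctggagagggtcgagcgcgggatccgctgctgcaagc
Id4: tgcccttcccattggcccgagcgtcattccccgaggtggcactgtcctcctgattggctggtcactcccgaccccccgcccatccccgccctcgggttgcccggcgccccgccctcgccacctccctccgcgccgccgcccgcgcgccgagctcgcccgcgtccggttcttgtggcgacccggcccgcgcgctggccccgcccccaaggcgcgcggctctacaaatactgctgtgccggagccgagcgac
The Itga8 window holds CANNTG at 2 places and the Hmga2 and Id4 windows at 0 places. A CANNTG, which reads as CANNTG on both strands, was present in 59% of the 329 windows found for genes called higher and in 57% of the 456 found for genes called lower, against 57% of 10084 windows of all genes tested. The form CAGCTG was present in 13.4% of the windows of genes called higher, 13.6% for genes called lower and 11.6% for all genes tested. In all 27025 promoters of that length CANNTG was present in 66% and CAGCTG in 12.8%. The called genes thus carried these letters near the start at shares within a few points of all genes tested, with no test made.

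The list of p53 target genes moved downward. The list held 28 tested genes, of which 13 fell, 0 rose and 15 were not called, so 46.4% of the list was called against 4.64% of all genes in that direction. At an unadjusted p under 0.05 the list had 15 lower and 1 higher, beside 3112 of all 12458 genes in either direction. Its median difference was -0.62, against 0.03 over all genes, and in lines 12, 13 and 14 the median was -0.79, -0.73 and -0.45. Ccng1, an atypical cyclin that p53 switches on, was at 4411, 5380 and 3389 with GFP and at 1248, 1449 and 1988 with Olig2. The groups did not overlap, and Ccng1 fell by 1.48 ± 0.19 (SE, adjusted p = 0.0022), by less in line 14 (-0.76) than in lines 12 and 13 (-1.81 and -1.88). Zmat3, an RNA-binding effector of p53, was at 2431, 2671 and 2248 with GFP and at 898, 985 and 1393 with Olig2, and showed the same order of lines (-1.42, -1.43 and -0.68). Ephx1, a microsomal epoxide hydrolase, fell by 0.70 and Trp53inp1, which promotes autophagy and cell death, by 1.09. Dcxr, a carbonyl reductase on the same list, fell from 1386, 1539 and 1058 to 88.5, 50.4 and 478. Of the 13 falls 8 were left without Olig2 line 12, 5 without line 12 as a whole and 3 without line 13, 12 without line 14, 8 against the same lines without a second virus, and 3, beside 1 rise, with the Gapdh term.

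Genes of the hypoxia response were higher. Of 29 tested, 11 rose, 0 fell and 18 were not called, which is 37.9% of the list against 3.24% of all genes. At an unadjusted p under 0.05 the list had 14 higher and 3 lower, beside 3112 of all 12458 genes in either direction. The median difference was 0.43, with 0.50, 0.29 and 0.75 in lines 12, 13 and 14, so line 14 was here not the weakest. Bnip3, a mitophagy receptor and target of the hypoxia factor Hif1a, was at 432, 645 and 398 with GFP and at 3487, 2580 and 2868 with Olig2. Every Olig2 array was far above every GFP array, and Bnip3 rose by 2.58 ± 0.22 (SE, adjusted p = 2.9e-04). Vegfa, the growth factor for blood vessels, was at 1227, 1372 and 1219 with GFP and at 3380, 3251 and 3424 with Olig2, with differences of 1.45, 1.23 and 1.48 in the 3 lines. Pdk1, the kinase that turns pyruvate away from mitochondria, rose by 1.72, from 272, 510 and 544 to 1433, 1258 and 1629. Slc2a3, a glucose transporter, rose by 1.87, from 864, 484 and 800 to 2586, 2112 and 3124. The transcripts of the factors themselves were not called, with -0.47 for Hif1a and -0.49 for Epas1, both looked up after the list was seen. The count of rises was 8 without Olig2 line 12, 6 or 7 without a whole line, 5 with the Gapdh term, and 8, beside 2 falls, against the same lines without a second virus.

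Hypoxia factors bind sites with the core ACGTG. These letters were found on either strand in 7 of the 10 promoter windows held for the 11 hypoxia genes that rose and in 14 of the 25 held for all 29. They were in 21.6% of windows of all genes tested and 16.6% of all 27025 promoters. The list was chosen as hypoxia response genes, so its share beside all genes says nothing about these arrays. The counts are too few to set the genes that rose apart from the whole list. Binding was not measured and no test was made. The Bnip3 window, chr7:138909507-138909756 on the minus strand, is shown with ACGTG in capitals, as Bnip3 led the hypoxia genes that rose.
Bnip3: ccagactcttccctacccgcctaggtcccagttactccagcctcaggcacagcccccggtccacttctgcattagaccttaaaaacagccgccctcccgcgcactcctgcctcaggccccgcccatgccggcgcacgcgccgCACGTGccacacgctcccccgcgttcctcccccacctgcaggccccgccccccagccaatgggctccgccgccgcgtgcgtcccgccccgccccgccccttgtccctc
Its 2 matches overlap, 1 on each strand, and together spell CACGTG, which is also a CANNTG.

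Glycolytic enzymes moved the same way. Of 19 tested, 7 rose (36.8%, against 3.24% of all genes) and 0 fell by limma (11 and 0 at an unadjusted p under 0.05). The median was 0.40, with line medians of 0.54, 0.34 and 0.45. Pgm1, which links glycogen to glycolysis, was at 788, 981 and 975 with GFP and at 2354, 2485 and 2216 with Olig2, and rose by 1.35 ± 0.16 (SE, adjusted p = 0.0015). Pgam1, a phosphoglycerate mutase, was at 8095, 9536 and 8574 with GFP and at 13150, 13166 and 16468 with Olig2. Neither gene overlapped between groups. Of the 7 rises 2 were left without Olig2 line 12, 3 without Olig2 line 13 or with the Gapdh term, 4 without GFP line 14 and 2 against the same lines without a second virus, and 4 with scaling to the 75th percentile. Of the 76 oxidative phosphorylation genes tested, 0 rose and 3 fell, which is near the 4.64% lower of all genes, with a median of -0.19. These falls were 1 without Olig2 line 12 and 6 without GFP line 14.

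**Figure D2:**
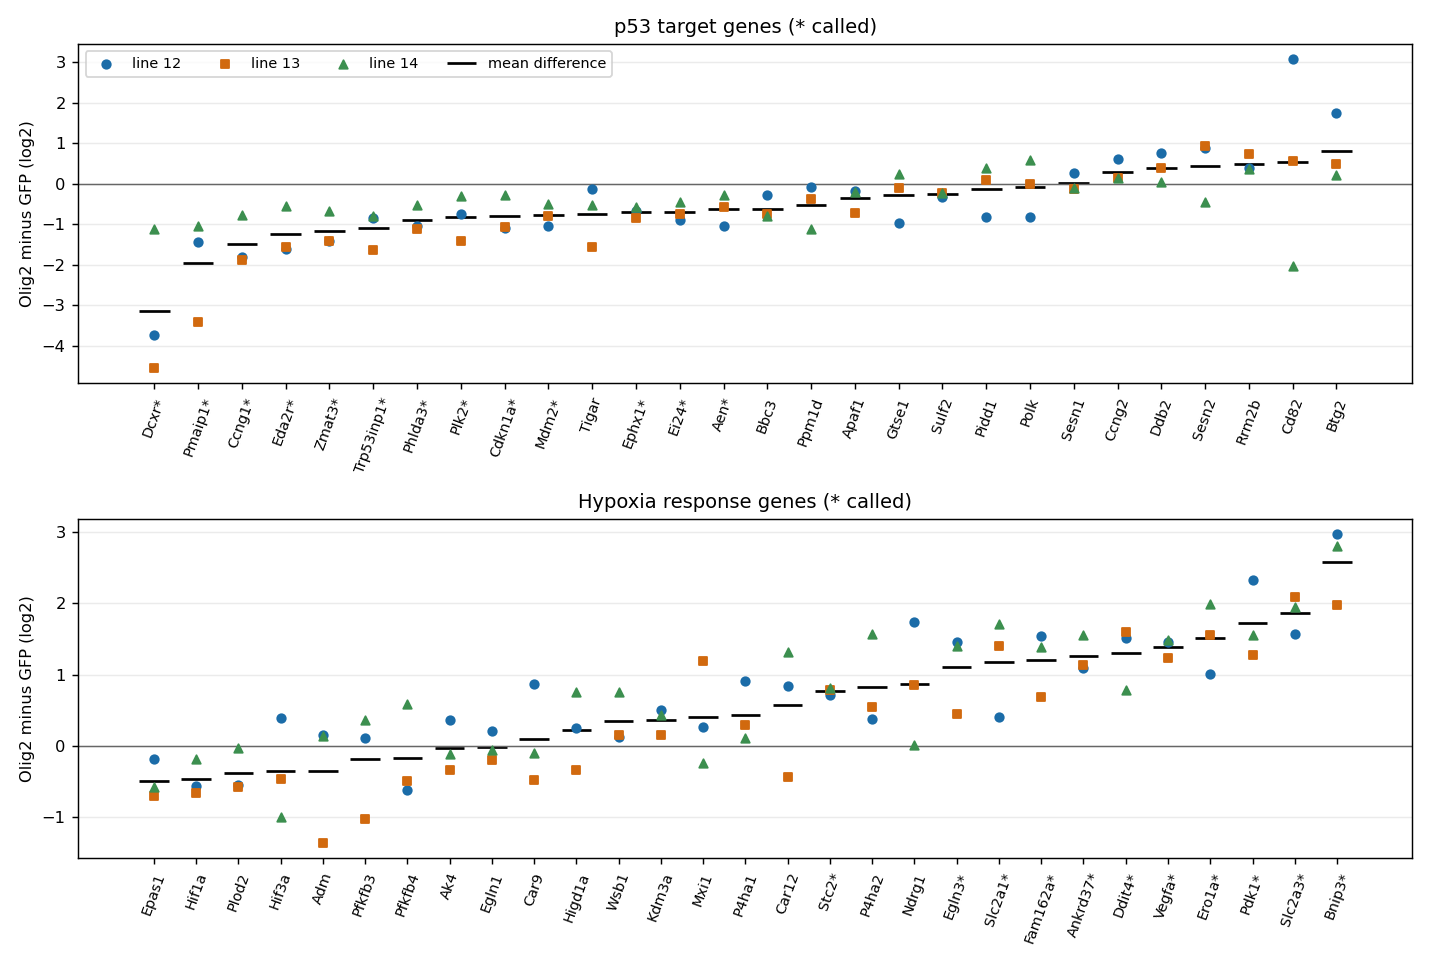
Olig2 minus GFP difference (log2) of each tested p53 target gene and hypoxia response gene in null lines 12, 13 and 14 (points) with the mean of the 3 lines (bar), and called genes starred. For p53 target genes line 14 lies nearest to 0 at most starred genes (Ccng1 at -0.76 against -1.81 and -1.88), and Bnip3 is the highest hypoxia gene, at 2.97, 1.97 and 2.80.

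Genes of the lysosome and of autophagy were lower. Of 31 tested, 9 fell (29.0%, against 4.64% of all genes) and 0 rose by limma (17 and 0 at an unadjusted p under 0.05). The median was -0.42, with line medians of -0.28, -0.44 and -0.57. Ctsd, the main aspartic protease of lysosomes, was at 8854, 11548 and 9537 with GFP and at 5899, 5614 and 5798 with Olig2. All GFP arrays were above all Olig2 arrays, and Ctsd fell by 0.78 ± 0.13 (SE, adjusted p = 0.0053). Tpp1, a lysosomal peptidase, fell by 0.54, and Npc2, a cholesterol carrier of the lysosome, by 0.64. Of the 9 falls 4 were left without Olig2 line 12 or GFP line 14, 3 and 5 without the Olig2 or GFP array of line 13, and 0 with the Gapdh term. Of 35 proteasome genes 34 had a negative difference, while 6566 of all 12458 genes had a positive one. The proteasome median was -0.28, and genes in the brightest of 4 equal signal classes had -0.13. The 4 proteasome genes that were called were lower, beside 4.64% of all genes. None of those 4 calls held without Olig2 line 12. With scaling to the 75th percentile 9 proteasome and 10 oxidative phosphorylation genes were lower.

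Receptor tyrosine kinases were more often higher than lower. Of 23 tested, 7 rose, 2 fell and 14 were not called, beside 3.24% higher and 4.64% lower of all genes. The median was 0.21. Ntrk2, the receptor for brain-derived neurotrophic factor, was at 956, 1410 and 1054 with GFP and at 6237, 4612 and 3145 with Olig2. It rose by 1.98 ± 0.22 (SE, adjusted p = 0.0011), most in line 12 (2.69) and least in line 14 (1.56). Axl, a receptor for Gas6, was at 162, 147 and 221 with GFP and at 650, 602 and 529 with Olig2. Its relative Tyro3 rose by 0.93, and Fgfr3, a fibroblast growth factor receptor of glial progenitors, by 2.03. No GFP array reached an Olig2 array for Ntrk2, Axl or Tyro3. Of the 7 rises 4 were left without either array of line 13, without Olig2 line 12 or without GFP line 14, and 3 with the Gapdh term. Against the same lines without a second virus 4 kinase genes rose and 0 fell, and Fgfr3 was not called higher.

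Among feedback inhibitors of MAP kinase signalling and their ETS factor partners more genes fell than rose. Of 24 tested, 5 fell, 1 rose and 18 were not called, beside 4.64% lower and 3.24% higher of all genes, and the median was -0.30. Beside Dusp4, the phosphatase gene Dusp6 was at 11599, 15374 and 15666 with GFP and at 8022, 9438 and 9406 with Olig2. It fell by 0.66 ± 0.13 (SE, adjusted p = 0.012), a call that did not hold without Olig2 line 12 (-0.58). Etv5, an ETS factor downstream of growth factor receptors, fell by 0.60, and was not called without Olig2 line 12 (-0.59), Olig2 line 13 (-0.50) or GFP line 12 (-0.49). The count of 5 falls was 1 without Olig2 line 12 and 3 without Olig2 line 13 or GFP line 14. Lrig1, which removes EGF receptors from the cell surface, rose by 0.92, from 2324, 2073 and 2176 to 3712, 4410 and 4387. This rise was not called against the same lines without a second virus, nor with the Gapdh term. Of 14 regulators of G-protein signalling tested, 1 rose and 3 fell, which is 28.6% called beside 7.88% of all genes. Rgs14 fell by 2.52 and Rgs16 by 3.79, from 4072, 6955 and 5911 to 430, 96.3 and 1264. Rgs16 was not called without Olig2 line 12 (-3.87) or GFP line 13 (-3.62), and 1 fall was left of the list's 3 without Olig2 line 12.

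**Figure D3:**
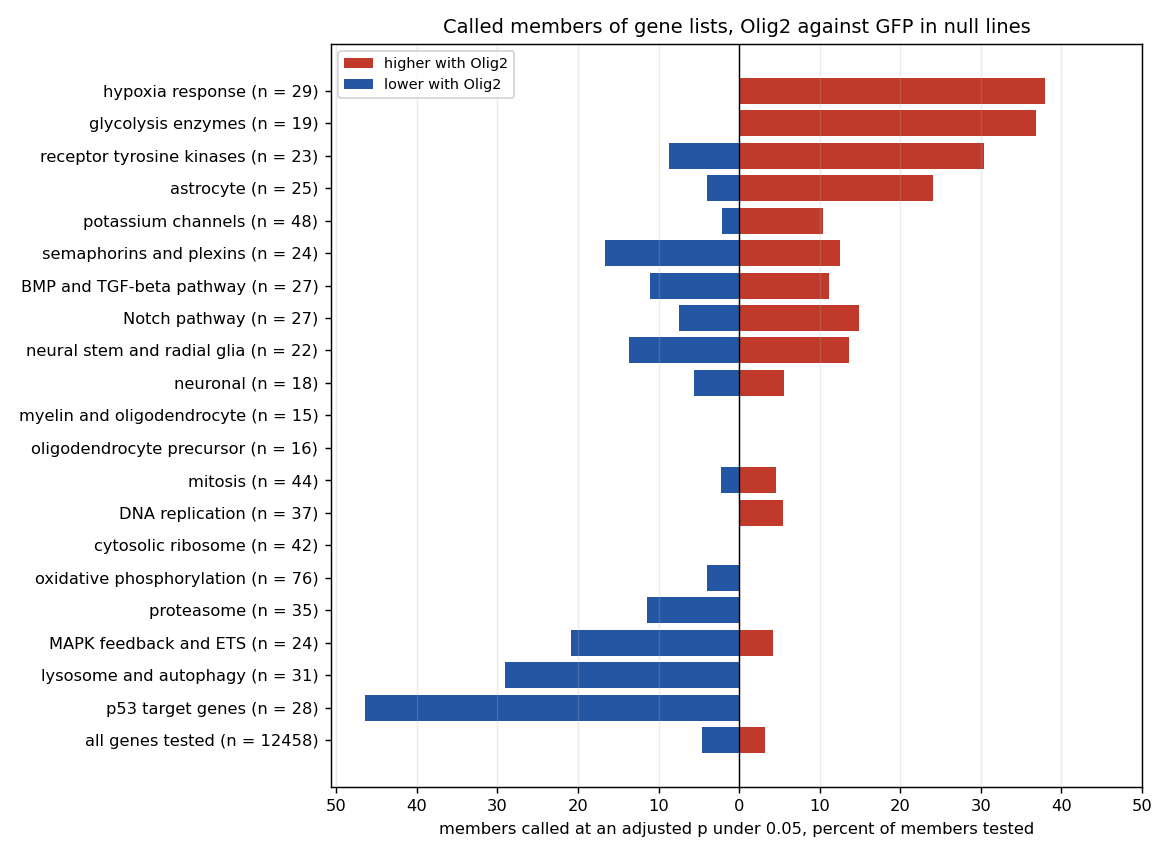
Percent of tested members of 20 gene lists, and of all genes tested, that were called higher (right) or lower (left) with Olig2 in the null lines. The p53 target list has the longest bar to the left (13 of 28) and the hypoxia list the longest to the right (11 of 29), where all genes have 4.64% to the left and 3.24% to the right.

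Genes of progenitor signalling changed in both directions. In the Notch pathway 4 of 27 tested rose and 2 fell. The ligand gene Dll1 was at 708, 450 and 449 with GFP and at 1888, 2366 and 987 with Olig2, and rose by 1.62 ± 0.28 (SE, adjusted p = 0.0082). The receptor gene Notch3 rose by 0.93, not called without Olig2 line 12 (0.86) or Olig2 line 13 (0.81). The Notch target Hes5 rose by 2.27 and was low with GFP (38, 71 and 36), but lost its call without the Olig2 array of line 12 (2.08) or 13 (1.77) or the GFP array of line 12 (2.17) or 14 (2.14). In the BMP and TGF-beta pathway 3 of 27 rose and 3 fell, and the receptor gene Bmpr1b rose by 2.40, from 70, 183 and 97 to 605, 1067 and 406. The same lines without a second virus had Bmpr1b at 303, 210 and 249, and against them it was not called higher. Of 24 semaphorins and plexins, which steer axons and migrating cells, 3 rose and 4 fell. Plxnb3 rose by 2.02, while Plxnd1 fell by 2.41, from 2490, 5279 and 5473 to 691, 480 and 1366. The guidance receptor gene Robo1 fell by 1.55. Of 48 potassium channel genes tested 5 rose and 1 fell. Beside Kcnd2, the large-conductance channel gene Kcnma1 rose by 2.05, evenly in the 3 lines (1.99, 1.96 and 2.19). The share called was 22.2% for Notch and for BMP and TGF-beta, beside 7.88% of all genes. It was 29.2% for semaphorins and plexins and 12.5% for potassium channels. The counts of these pathways are small, and without Olig2 line 12 they were 1 rise and 0 falls for Notch, 1 and 0 for BMP and TGF-beta, 1 and 1 for semaphorins and plexins, and 3 and 0 for potassium channels.

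Markers of differentiated cells gave few calls apart from astrocyte genes. Of 16 genes of oligodendrocyte precursors 0 were called, with a median of 0.31 and line medians of 0.42, 0.66 and -0.07. Of 15 myelin and oligodendrocyte genes 0 were called, with a median of 0.27, while Pdgfra and Gpr17 never reached the median of an array. At an unadjusted p under 0.05 limma had 5 precursor genes higher and 0 lower, and 1 myelin gene higher and 2 lower. That threshold was passed by 3112 of all 12458 genes in either direction, so these small counts do not stand out. Neither list had a call with the line block, and 1 myelin gene rose and 1 fell against the same lines without a second virus. Of 18 neuronal genes 1 rose and 1 fell, which is 11.1% called, near the 7.88% of all genes. Of 25 astrocyte genes 6 rose and 1 fell (28% called, beside 7.88% of all genes). The median was 0.36, with line medians of 0.61, 0.18 and 0.13. The calcium-binding protein gene S100b, found in astrocytes and in oligodendrocyte precursors, was at 156, 600 and 340 with GFP and at 1804, 2373 and 921 with Olig2, and rose by 2.25, with no call without Olig2 line 12 (2.16) or Olig2 line 13 (1.96). The receptor gene Ntsr2 rose by 1.31, from 200, 195 and 197 to 733, 379 and 482. Gfap, the astrocyte filament gene, was at 257, 434 and 652 with GFP and at 675, 316 and 749 with Olig2, and was not called. The count of 6 rises was 2 without Olig2 line 12 and 3 without Olig2 line 13. Against the same lines without a second virus, 0 of these 25 genes rose and 2 fell, so the astrocyte rises are relative to the GFP arrays. In whole cultures, fewer cells of a type and less RNA per cell cannot be told apart.

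The labelled cell type was checked against its markers. Of 6 neural stem cell markers Sox2, Nes, Vim, Fabp7 and Msi1 were above the array median on all 6 arrays, Sox2 at 5257 to 7678, and Prom1 on 1 array. Fabp7 was the 1 of these that was called, with a rise of 0.60. The 5 microglial markers summed to 428 to 584 with GFP and to 637 to 964 with Olig2, and the 4 endothelial and pericyte markers to 169 to 338 and 296 to 576, with 4 and 2 of them never at the median of an array. Csf1r was the microglial marker that reached the median on every array, and was not called. The part of such cells in the results was not tested.

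The cyclin D1 gene fell, and most other cell cycle genes were not called. Ccnd1, which drives entry into the cell cycle, was at 24328, 25775 and 22601 with GFP and at 10991, 10568 and 13901 with Olig2. It fell by 1.04 ± 0.12 (SE, adjusted p = 0.0011), and all 3 GFP arrays were above all 3 Olig2 arrays. Of 28 G1 cyclins, kinases and inhibitors 2 rose, 4 fell and 22 were not called, so 21.4% were called beside 7.88% of all genes. The 4 falls were 1 without any one array of lines 12 and 13. Cdkn1a, the p53-driven inhibitor p21, was at 6165, 6972 and 4121 with GFP and at 2894, 3325 and 3409 with Olig2, and fell by 0.81, with a weak -0.27 in line 14. It lost its call without either array of line 12 or of line 13 (-0.84 to -0.65). Of 37 DNA replication genes 2 rose and 0 fell and of 44 mitosis genes 2 rose and 1 fell, beside 7.88% called of all genes, so neither count stands out. Both rises were lost without the Olig2 array of line 13 for replication and of line 12 for mitosis, and 3 replication genes were lower without that of line 14. Of 42 cytosolic ribosome genes and 76 mitochondrial ribosome genes 0 were called by limma, with or without the line block. At an unadjusted p under 0.05, 2 cytosolic ribosome genes were higher and 1 lower, and 1 mitochondrial ribosome gene was higher and 7 lower. Of all 12458 genes, 3112 passed that threshold in either direction.

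The called genes shared their sign in the 3 lines, while over all genes the lines were only moderately alike. Over all 12458 genes the Olig2 minus GFP differences of lines 12 and 13 correlated with Pearson r = 0.421, those of lines 12 and 14 with 0.307 and those of lines 13 and 14 with 0.361. These values are across genes of 6 arrays, which are not independent replicates, and carry no p. The sign was shared by 66.0%, 62.3% and 64.9% of genes in these pairs, and by all 3 lines for 46.6% of genes. The differences spread less in line 14 (SD 0.605) than in lines 12 (0.766) and 13 (0.791). Among the 982 called genes 980 had the same sign in the 3 lines, which the call largely fixes. Line 14 had the smallest of the 3 differences at 566 of these genes, line 12 at 243 and line 13 at 173. The median difference of genes called higher was 1.11, 1.16 and 0.83 in lines 12, 13 and 14, and that of genes called lower -0.80, -0.89 and -0.61. A doubling in every line was reached by 85 genes called higher, and a fall of that size in every line by 84 genes called lower.

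**Figure D4:**
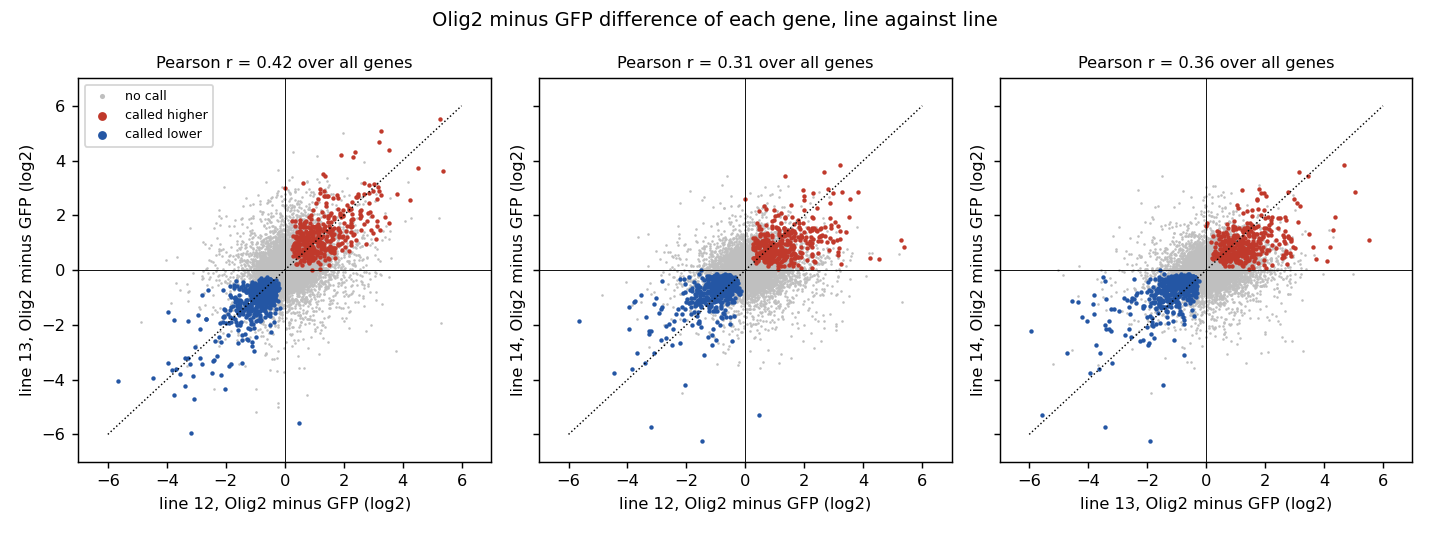
Olig2 minus GFP difference (log2) of 12458 genes in 1 null line against another, with genes called higher in red, genes called lower in blue and the dotted line marking equal differences. Pearson r over all genes was 0.421, 0.307 and 0.361, and in the panels with line 14 the called genes lie nearer to the horizontal axis.

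To read each line without its own arrays, genes were called from the other lines and then looked up in the line left out. Without line 12, 303 genes (2.43%) were called, and 92.1% of them had the same sign in line 12, against 67.4% of all genes. Without line 13, 203 genes (1.63%) were called, with 97.0% of the same sign in line 13 against 69.1%. Without line 14, 790 genes (6.34%) were called, with 88.5% of the same sign in line 14 against 65.1%. The median ratio of the difference in the line left out to that in the fit was 0.774 for line 12, 0.971 for line 13 and 0.455 for line 14. In line 14 the genes called higher from the other lines had a median of 0.53 against 1.38 in the fit.

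Line 14 was weaker in some gene groups and not in others. For amino acid and unfolded protein stress genes the line medians were 0.98, 0.53 and -0.02. The share called was 23.3%, beside 7.88% of all genes. Of the 30 tested, 4 rose and 3 fell with all arrays, but 16 rose and 5 fell without Olig2 line 14, and 1 rose and 1 fell without Olig2 line 12, GFP line 14 or either array of line 13. For immediate early genes the line medians were 1.04, -0.01 and -0.31. Of these 25 genes 2 were higher and 1 lower, which is 12% called beside 7.88% of all genes. For hypoxia genes and the 8 Hox genes tested line 14 had the largest median (0.75 and 0.89). The p53 targets, by contrast, had -0.45 in line 14. Whether these line differences exceed the spread of repeat cultures of 1 line was not tested, since each line had 1 array per virus.

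The called genes with the most even differences were Atp7a, a copper pump (-1.02, -1.01 and -1.03), the chaperone gene Hsph1 (-0.51, -0.50 and -0.50), Ints6l, of the Integrator family (0.71, 0.70 and 0.69), Ppp2r5e, a subunit of protein phosphatase 2A (-0.72, -0.71 and -0.74), and Lman2, a lectin of the secretory pathway (-0.89, -0.84 and -0.87). Even differences did not make firm calls, since Hsph1, Ints6l, Ppp2r5e and Lman2 were not called without Olig2 line 12 (-0.41, 0.64, -0.68 and -0.83) or without GFP line 14, among other arrays, while Atp7a was called without each array. The least even was Cacng5, a subunit for AMPA receptors, with 0.47 in line 12, -5.58 in line 13 and -5.29 in line 14. Its line 12 signal was 297 with GFP and 419 with Olig2, whereas lines 13 and 14 went from 1352 and 1467 to 12.6 and 21.9, near or below the added 16. Its other probe set did not show this, with 165, 109 and 234 with GFP, 247, 197 and 244 with Olig2 and a difference of 0.46 (adjusted p = 0.37). The imprinted gene Mest rose in lines 12 and 14 (0.92 and 1.63) and was equal in line 13 (10730 and 10724). Gabrg1, a GABA receptor subunit, was equal in line 12 (547 and 548) and differed by 3.00 and 2.60 in the others. Lonp2 differed by 1.19, 0.03 and 1.70, and Mcts1 by -1.90, -3.50 and -0.24. These 5 genes lost their call without at least 8 of the 10 arrays of the null and heterozygous lines in turn. Of all genes, 19 were at least 4-fold up in 1 line and 4-fold down in another. The brightest of these is Gja1, the gap junction gene connexin 43, with 539, 288 and 332 with GFP and 2137, 2255 and 42.1 with Olig2, a gene picked after its values were seen.

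The called genes were then read in cultures that gave no array to the comparison, wild-type cultures and null lines 16, 21 and 24 without a second virus. Wild-type cultures averaged above these null lines for 83.7% of the 404 genes called higher, against 51.9% of all genes, and below them for 82.5% of the 578 genes called lower, against 48.1%. All 3 wild-type arrays were above all 3 null arrays for 30.2% of the genes called higher, against 11.3% of all genes. They were below all 3 null arrays for 34.1% of those called lower, against 9.63%. Rgs16 averaged 323 ± 63.6 in wild-type and 4658 ± 167 in these null lines (SD, n = 3 each), and Plxnd1 448 ± 65.8 and 3983 ± 1832. Kcnd2 averaged 629 ± 200 and 83.8 ± 80.3, and Ntrk2 5054 ± 593 and 2403 ± 416. For these genes Olig2 in the null lines and the Olig genes in wild-type cultures go the same way.

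Some of the groups above did not follow that direction. Of the 28 p53 target genes 19 were above the null lines in wild-type cultures, with a median of 0.12. Ccng1 averaged 3050 ± 496 in wild-type and 2627 ± 325 in the null lines, and Zmat3 1797 ± 223 and 1730 ± 413 (SD, n = 3 each). Ccnd1 averaged 25594 ± 1695 and 20665 ± 6619. Olfml3 averaged 349 ± 21.6 in wild-type and 765 ± 774 in these null lines, so the 1260 to 2404 reached with the Olig2 virus is above both means, with a wide spread in the null lines. The hypoxia list had a median of 0.15 and the lysosome list -0.10 in the same comparison, the direction seen with Olig2 but smaller, while glycolytic enzymes had 0.33, and all 3 wild-type arrays were above all 3 null arrays for 7 of 19.

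**Figure D5:**
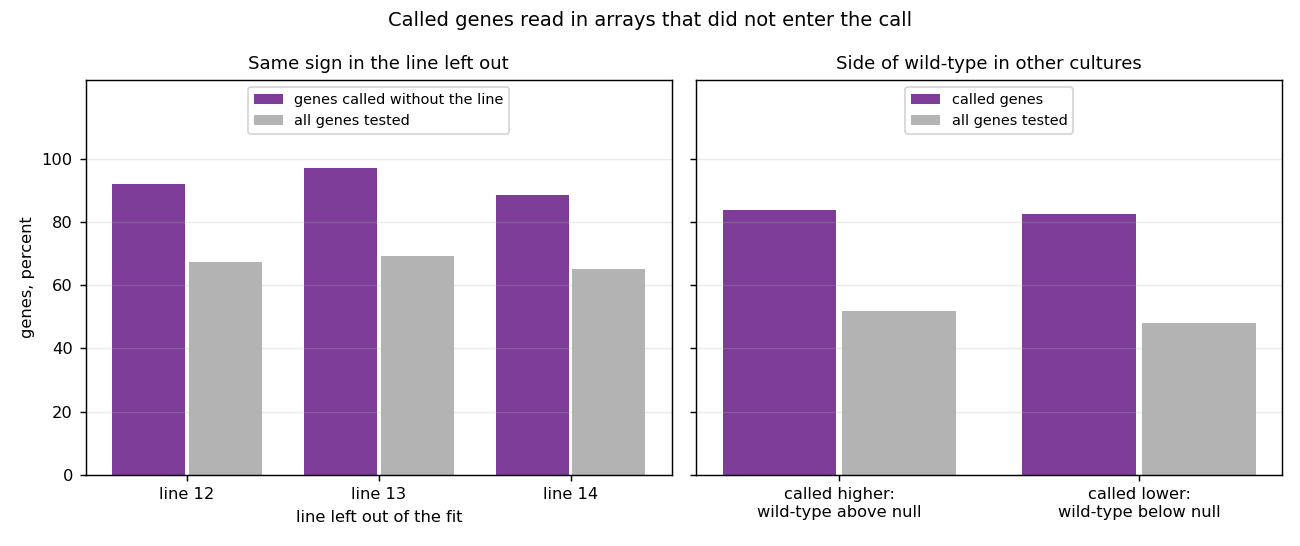
Left, percent of genes called without 1 line that had the same sign in that line (92.1, 97.0 and 88.5%), beside all genes tested (67.4, 69.1 and 65.1%). Right, percent of genes called higher with Olig2 that averaged higher in wild-type than in null lines 16, 21 and 24, and of genes called lower that averaged lower (83.7 and 82.5%), beside all genes (51.9 and 48.1%).

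The arrays differed in ways that move with the virus. The median signal was 128.9 to 151.6 on the GFP arrays and 173.6 to 191.2 on the Olig2 arrays, and the Gapdh 3'/5' log2 signal ratio was -0.09, 0.43 and -0.04 on the GFP arrays against -0.20, -0.20 and -0.25 on the Olig2 arrays. GFP line 13 stood apart also by its A260/A280 absorbance ratio of 2.83, with 1.77 to 1.88 on the other arrays. The difference also depended on the level, as genes in the 4 equal classes from lowest to highest mean signal had medians of 0.25, 0.11, -0.02 and -0.13. Once the Gapdh ratio entered the fit, 227 genes (1.82%) were called, 109 higher (0.875%) and 118 lower (0.947%), and 188 of them were among the 982 with the same direction. The part of RNA quality in the results was not tested beyond that fit. Against the same lines without a second virus, 394 of the 404 genes called higher and 568 of the 578 called lower kept their sign, and 128 and 219 of them were called, out of 500 calls in all (4.01%; 1.58% higher and 2.43% lower). With the culture line as a block 994 genes (7.98%) were called.

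A test of the Olig2 effect in null lines against that in heterozygous lines 11 and 15 called 7 genes (0.0562%), among them Hmga2, Olfml3, Itga8 and Ptprd.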

How the data were processed

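RNA of the 30 cultures and tissues was hybridised to Affymetrix Mouse 430 2.0 arrays. The deposited values are MAS5 signal intensities, a linear intensity per probe set; MAS5 is named in the submitters' processing notes, and the values have a trimmed mean of 500 on each array; no MAS5 version was stated. The number of arrays limits the precision. Of 45101 probe sets 34945 named 1 gene symbol, 932 several and 9211 none, and 64 were controls; 34741 matched RefSeq. Each of 18193 genes was represented by its probe set of highest mean signal, 12458 reached the array median on at least 2 of them, and log2(signal + 16) was tested with limma 3.58.1 (R 4.3.3; trend, Benjamini-Hochberg) over the 10 null and heterozygous arrays with either virus; the script was tested on simulated data. Promoters and figures used Python 3.11.15 and matplotlib 3.10.9. The members and lists were chosen with earlier results of these data known. Genes named are Olig1, Olig2 and Id4, the 12 largest called rises and falls of like sign in all lines, up to 4 members of smallest p per list, the 5 called genes with most and the 5 with least even lines, and genes that differ from heterozygous lines; Hif1a, Epas1, Gfap, Gja1 and the markers were chosen after their values were seen, as was the reading in wild-type cultures. The line numbers come from the titles. Deviations of same-numbered arrays from their group means correlated at 0.016, 0.063 and 0.0068, and with the line as a block 994 genes were called, 816 of them shared. Alternatives changed the pseudocount, filter, scaling, probe sets, variance model, block, control, Gapdh term and each array. Of the 68 lists, 1648 distinct genes were tested; every list's counts were computed and the report gives those it describes.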

Additional observations from a re-analysis of the deposited data

Results flagged for a closer look

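For 7 of 12458 genes (0.0562%) the Olig2 minus GFP difference in null lines 12, 13 and 14 differed from that in heterozygous lines 11 and 15, by limma's interaction term at an adjusted p under 0.05. In the heterozygous lines alone limma called 0 genes, with 203 higher and 281 lower at an unadjusted p under 0.05. Hmga2 differed most, by 4.174 (adjusted p = 0.0013), with -0.26 in the heterozygous lines, and was called without each array in turn. Olfml3 differed by 3.821 (adjusted p = 0.011), with -0.68 in the heterozygous lines. Gpaa1, a subunit of the enzyme that attaches GPI anchors, differed by 2.407 (adjusted p = 0.028), with -0.75 there. Its other 2 probe sets differed from GFP in the null lines by 0.27 and 0.04, against 1.66 for the one used, and against the same null lines without a second virus that one was at -0.24. Itga8 differed by -3.36 (adjusted p = 0.011), with -0.08 there, and Ptprd by -2.711 (adjusted p = 0.011), with 0.41. Dipk2a differed by -1.434 (adjusted p = 0.045) and Lrpap1, a chaperone of LDL receptor family proteins, by -1.362 (adjusted p = 0.040), with 0.11 and 0.31 in the heterozygous lines. Apart from Hmga2, each lost its call without at least 1 array. What sets these genes apart was not tested.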

How the results depend on the processing

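The 982 calls became 384 without the variance trend, 567 with the 6 null arrays alone, 500 against the same lines without a second virus, 227 with the Gapdh term, 2045 with all probe sets and 397 at a log2 difference of at least 1. Leaving out 1 array gave 304 to 1171 calls, and leaving out a line 203 to 790. With all probe sets 56% of calls were higher, with the 75th percentile scaling 22.8%, and as reported 41.1%. With the replicate block 994 genes were called. The same-numbered arrays are paired by title only, and their deviations correlated too weakly to show a shared source. The 7 calls against the heterozygous lines became 17 with a pseudocount of 64, 4 with the replicate block and 1 to 34 without 1 array. Without the trend, 81.2% of genes called without line 12 had the same sign in it. Against the same lines without a second virus Gpaa1 was at -0.24 and Bhlhe40 at -0.58, and Ly6e was at 0.05208 without probe sets shared between transcripts. The causes were not tested. Of 167 named genes that were called, 71 kept the call without each of 10 arrays, and 38 also in every other alternative. Signals near background limit the dimmest genes, whose differences depend on the pseudocount.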

Other observations

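Metallothioneins, small proteins that bind zinc and copper, were higher with Olig2, a group picked after its values were seen. Mt1 was at 5820, 10317 and 6874 with GFP and at 27435, 21118 and 13225 with Olig2, and rose by 1.40 ± 0.30 (SE, adjusted p = 0.019). Mt2 rose by 2.24 ± 0.33 (SE, adjusted p = 0.0036), by 2.70, 2.77 and 1.26 in lines 12, 13 and 14. Mt3, the form of brain, rose by 2.31 ± 0.52 (SE, adjusted p = 0.023), from 111, 350 and 367 to 989, 2681 and 788. Against the same lines without a second virus Mt2 was called (1.24, adjusted p = 0.043), while Mt1 (0.96) and Mt3 (1.32) were not. With the Gapdh term Mt1 (1.77, adjusted p = 0.052) and Mt2 (1.91, adjusted p = 0.065) were not called, and Mt3 was (3.08, adjusted p = 0.049).

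Genes on chromosome 15 had a median difference of 0.21, with 0.06, 0.36 and 0.24 in lines 12, 13 and 14, against 0.03 over all genes. Of 498 tested there, 31 rose and 11 fell, beside 3.24% and 4.64% of all genes. The Y-linked gene Eif2s3y was at 16.5 on the Olig2 array of line 13 and at 627 to 926 on the other 5 arrays, while the Y-linked Kdm5d was at 354 to 558 on all 6.

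All 8 Hox genes tested, which set position along the body axis, had a positive difference, as did 6566 of all 12458 genes. Their median was 0.85, and 1 was called (12.5%, beside 7.88% of all genes).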
